A study of Mus musculus with 3 samples.

Results

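The chemokine genes Ccl2, Ccl3, Ccl4, Ccl5, Ccl7, Cxcl1, Cxcl2, Cxcl9, Cxcl10 and Cxcl11, which macrophages are known to induce after lipopolysaccharide (LPS), were examined in a map of EZH2 occupancy. These 10 genes were taken by name from the RefSeq gene table, which holds 21887 genes of protein-coding type on the autosomes, X and Y. Every EZH2 interval from 10 kb before to 10 kb after each gene was collected. The genes were chosen by name with earlier results in view, among them the LPS intervals without an NT partner at Ccl4, Cxcl10 and Ccl5 and their summit values. The counts and values over them therefore describe the data and were put to no test.

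The cells were bone marrow-derived macrophages of C57BL/6 mice, grown from adult femur and tibia marrow for 5 days with M-CSF-conditioned medium. One group was non-treated (NT) and the other received LPS for 2 h, with no dose in the labels. EZH2-bound chromatin was sequenced as 1 library per group (ChIP-seq), and an input DNA library with no intervals used here was the remaining sample. The sources used here do not give the number of mice, and without expression values the cell type could not be checked against markers. The track of the stimulated library is named TLR; it was assigned to LPS, which acts on a Toll-like receptor (TLR), since no other EZH2 sample was stimulated.

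EZH2 is the methyltransferase of polycomb repressive complex 2 and places methyl groups on lysine 27 of histone H3, a mark of silent genes that is best known at CpG-rich promoters. Chemokines are small secreted proteins that draw leukocytes along a gradient through G protein-coupled receptors. Their genes lie in clusters that arose by duplication. In macrophages the inflammatory members are switched on by NF-kB and interferon signalling downstream of Toll-like receptors.

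The authors' lists held 9643 NT intervals over 16926.9 kb and 4651 LPS intervals over 9102.65 kb. Each interval carries the authors' value at its summit, a whole number with no unit stated in the sources used here. These summit values ran from 11 to 253 in NT (median 27) and from 7 to 100 in LPS (median 16). Read depth and scaling between the libraries are unknown, and with 1 library per group no difference has a replicate check.

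Promoter sequences were at hand for 5 of the 10 genes (RefSeq, GRCm38.p6, the assembly of mm10), and Ccl2, Ccl4, Ccl5, Ccl7 and Cxcl11 had no entry. The 250 bases before the transcription start are printed for Cxcl10 and Ccl3, whose promoters lay wholly inside an LPS interval, and for Cxcl1 and Cxcl2, whose promoters met no interval. Each reads 5′ to 3′ on the gene's own strand. Capitals mark matches to the kappaB motif, the site class of NF-kB, and to a pair of GAAA runs with 2 bases between them, the spacing of interferon-response elements, on either strand.
Cxcl10, chr5:92348890-92349139, minus strand: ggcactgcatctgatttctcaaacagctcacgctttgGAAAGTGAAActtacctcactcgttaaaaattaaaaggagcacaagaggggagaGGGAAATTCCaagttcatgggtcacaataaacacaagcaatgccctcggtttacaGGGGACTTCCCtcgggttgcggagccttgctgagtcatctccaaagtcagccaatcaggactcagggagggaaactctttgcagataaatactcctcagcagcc
Ccl3, chr11:83649379-83649628, minus strand: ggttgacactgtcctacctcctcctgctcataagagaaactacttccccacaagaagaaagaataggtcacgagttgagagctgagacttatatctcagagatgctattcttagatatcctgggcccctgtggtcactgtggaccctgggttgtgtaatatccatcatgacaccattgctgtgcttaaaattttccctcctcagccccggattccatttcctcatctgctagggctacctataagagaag
Cxcl1, chr5:90890995-90891244, plus strand: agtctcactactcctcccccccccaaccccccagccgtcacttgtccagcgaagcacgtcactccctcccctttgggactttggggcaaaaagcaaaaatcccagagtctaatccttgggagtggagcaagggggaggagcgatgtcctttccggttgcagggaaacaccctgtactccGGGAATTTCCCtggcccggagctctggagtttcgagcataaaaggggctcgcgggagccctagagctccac
Cxcl2, chr5:90903649-90903898, plus strand: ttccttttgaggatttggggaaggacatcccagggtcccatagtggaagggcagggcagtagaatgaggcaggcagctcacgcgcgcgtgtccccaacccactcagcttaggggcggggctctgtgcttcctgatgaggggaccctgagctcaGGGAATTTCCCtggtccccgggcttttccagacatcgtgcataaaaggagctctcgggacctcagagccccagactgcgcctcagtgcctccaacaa

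In the Cxcl10 promoter, GAAAGTGAAA lay 213 to 204 bases before the start. A kappaB match, GGGAAATTCC, lay 159 to 150 bases before it, and overlapping matches filled bases 104 to 94 before it. Cxcl1 and Cxcl2 each had the run GGGAATTTCCC, a pair of overlapping kappaB matches on opposite strands, from 71 to 61 and from 97 to 87 bases before the start. The printed Ccl3 bases held neither motif, and neither did those of Cxcl9. Of 21263 promoters of protein-coding genes, 7.91% held a kappaB match and 2.96% a GAAA pair in the same 250 bases. Of 2 shorter motifs searched, TATAAA (11.6% of promoters) was found in Cxcl9 from 195 to 190 bases before the start, and CCAAT (35.4%) in Cxcl9 from 65 to 61 and in Cxcl10 from 54 to 50. The kappaB motif was thus present in promoters inside an LPS interval (Cxcl10) and outside any interval (Cxcl1 and Cxcl2).

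No chemokine gene of the 10 had an NT interval in its window, and 4 of them, Ccl3, Ccl4, Ccl5 and Cxcl10, had LPS intervals. Within 10 kb of a gene, NT intervals were listed at 46.0% of all protein-coding genes, LPS intervals at 21.2%, both at 20.6%, NT intervals alone at 25.4% and LPS intervals alone at 0.635%, which is 139 genes. The 4 genes of 10 with an LPS interval alone (40.0%) thus stood beside a background of 0.635%, a contrast that took part in choosing the genes and supports nothing by itself. These genes rested on 7 distinct LPS intervals, which covered 11.5 kb in all. Their summit values ran from 11 to 24 (median 18) and their widths from 780 to 3162 bp (median 1289 bp). Each of the 7 stood as a merged region of its own in the authors' track of merged regions. Since 2 of them fell into the windows of both Ccl3 and Ccl4, the genes are not separate observations.

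By position the genes formed 4 groups of neighbours less than 200 kb apart. LPS intervals lay in 2 of these groups, Cxcl9 with Cxcl10 and Cxcl11 on chromosome 5 and Ccl5 with Ccl3 and Ccl4 on chromosome 11. The groups of Cxcl1 with Cxcl2 on chromosome 5 and of Ccl2 with Ccl7 on chromosome 11 had no interval of either library. The plot of intervals along the 2 groups with LPS intervals shows the LPS intervals over or within 1 kb of Cxcl10, Ccl5, Ccl3 and Ccl4 and the NT intervals of the area at Sdad1, Art3 and Taf15.

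**Figure D1:**
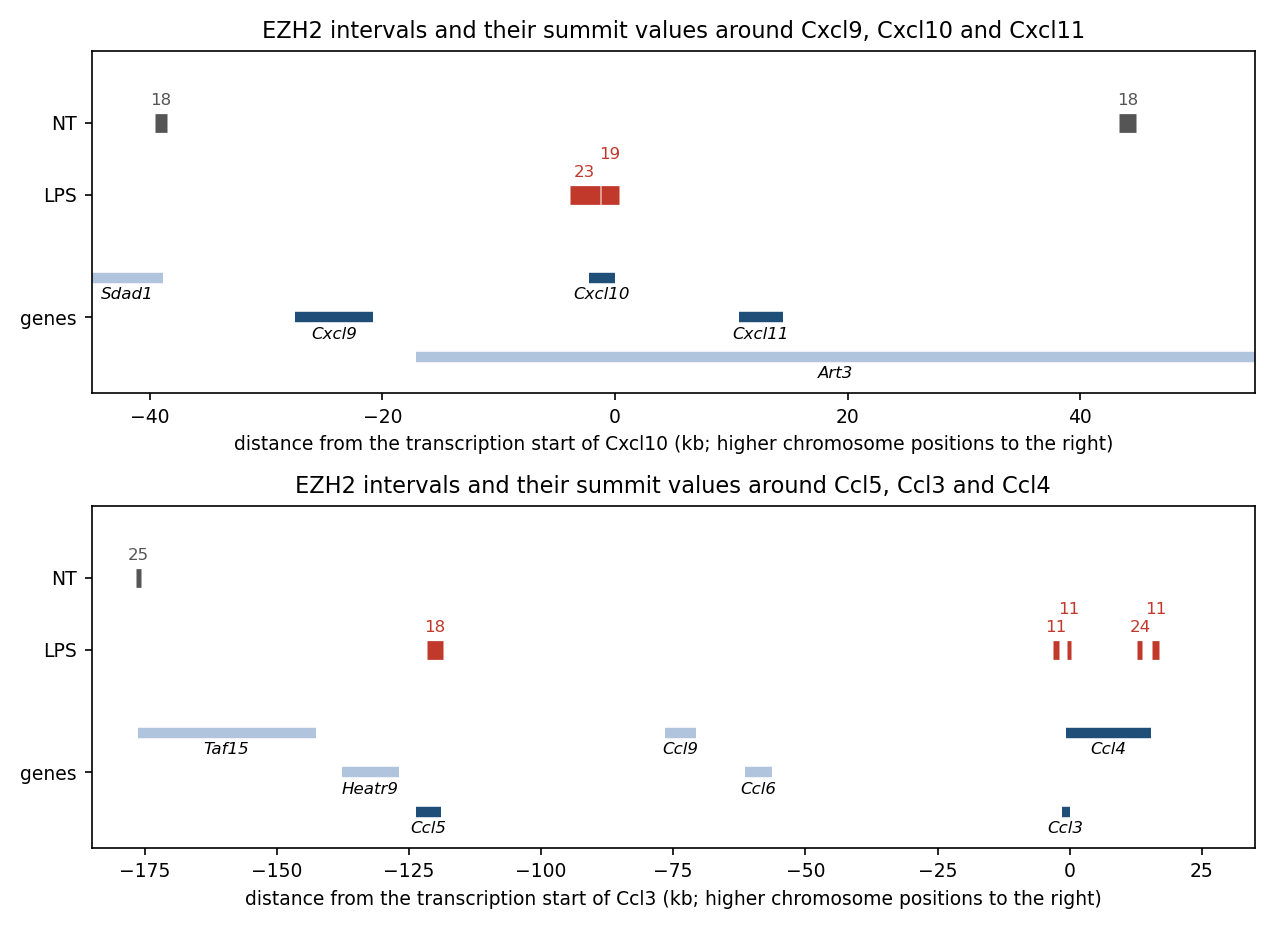
EZH2 intervals (bars, with summit values above them) of the NT and LPS libraries and the annotated genes (dark for the chemokine genes studied, light for others), by distance in kb from the transcription start of Cxcl10 (top) and Ccl3 (bottom). The 7 LPS intervals lie at Cxcl10, Ccl5, Ccl3 and Ccl4, and the NT intervals shown lie at Sdad1, Art3 and Taf15.

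The ligands of the receptor Cxcr3, which attract activated T cells and natural killer cells, are Cxcl9, Cxcl10 and Cxcl11. Cxcl10 (chromosome 5, 92346638 to 92348889 on mm10, minus strand) had 2 LPS intervals that together covered 97.0% of the gene. The first, from 92344986 to 92347582, reached 23 at its summit, which lay 814 bp beyond the 3′ end of the gene. The second, from 92347650 to 92349226, had a value of 19, with its summit inside the gene 137 bp from the 5′ end, and it took in the whole promoter printed above. Only 67 bp separated them, so the pair spanned 4241 bp from beyond the 3′ end to past the promoter. NT had no interval nearer to Cxcl10 than 36.3 kb.

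Cxcl9 (92321331 to 92328079, minus strand) had no interval in its window. Its nearest LPS interval was the first of the Cxcl10 pair, 16906 bp away, and its nearest NT interval lay 11000 bp away at Sdad1, with a value of 18. Cxcl11 (92359544 to 92363296) is annotated as a transcribed pseudogene in this assembly of C57BL/6J. It missed the window limit narrowly, since the second Cxcl10 interval ended 10317 bp from it, and its nearest NT interval, with a value of 18, lay 29.0 kb away. The LPS signal of this group was therefore listed over Cxcl10 alone of the 3 genes. All of Cxcl10 and Cxcl11 lies within the annotated span of Art3, an ADP-ribosyltransferase gene, so these intervals also count for Art3.

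Ccl3, Ccl4 and Ccl5 encode chemokines that attract monocytes and T cells. Ccl5 (chromosome 11, 83525778 to 83530518) had 1 LPS interval, from 83527719 to 83530880, with a summit value of 18. At 3162 bp it was the widest of the 7, wider than 85.7% of all LPS intervals, and it covered 59.1% of the gene and its higher-coordinate end. The nearest NT interval lay 52.1 kb away at Taf15, with a value of 25. Heatr9, the neighbouring gene, had the Ccl5 interval within 10 kb as well.

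Ccl3 (83647843 to 83649378, minus strand) had 2 LPS intervals, each with a summit value of 11. One, from 83648866 to 83649645, covered the 5′ 33.4% of the gene and the whole printed promoter, with its summit 114 bp inside the gene from the start. The other, from 83646229 to 83647369, ended 473 bp beyond the 3′ end. With 780 bp the promoter interval was the narrowest of the 7, and 8.28% of LPS intervals were narrower. Ccl3 also had the lowest summit values of the 4 genes, as its value of 11 was higher than that of 11.2% of LPS intervals and equal to the lowest value in the NT list.

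Ccl4 (83648624 to 83664683) has 2 RefSeq transcripts, of which 1 is a predicted model, and its annotated span overlaps Ccl3 by 755 bp. Both Ccl3 intervals thus fall into the Ccl4 window too. The gene table gives a single span for both transcripts, so the overlap and this sharing may rest on the predicted model. Ccl4 also had 2 LPS intervals that Ccl3 did not share. The one from 83662188 to 83663139 reached 24, the highest of the 7, and its summit lay 2027 bp from the higher-coordinate end of the gene. Strand and transcript starts of Ccl4 were not at hand, so the place of this summit relative to a transcription start is not known. The one from 83665000 to 83666288 had a value of 11 and began 316 bp past that end. The Ccl4 interval with the value of 24 was 952 bp wide, against 3162 bp at Ccl5 and 2597 and 1577 bp at Cxcl10. The median over all LPS intervals was 1472 bp. The nearest NT interval lay 88.8 kb from Ccl4 and 104 kb from Ccl3, with a value of 30. Between Ccl5 and Ccl3 lie 117 kb with the chemokine genes Ccl9 and Ccl6, and neither had an interval of either library within 10 kb.

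Ccl2 and Ccl7 encode monocyte attractants that act through Ccr2. Ccl2 (chromosome 11, 82035577 to 82037452) lay 66.5 kb from the nearest NT interval, with a value of 18, and 349 kb from the nearest LPS interval, with a value of 23. For Ccl7 (82045712 to 82047525) these distances to the same 2 intervals were 76.6 kb and 339 kb. Their chemokine neighbours Ccl11, Ccl12, Ccl8 and Ccl1 had no interval either.

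Cxcl1 and Cxcl2 encode neutrophil attractants that act through Cxcr2. Cxcl1 (chromosome 5, 90891245 to 90893121) lay 181 kb from the nearest NT interval, with a value of 21, and 246 kb from the nearest LPS interval, with a value of 23. Cxcl2 (90903899 to 90905938) lay 168 kb and 233 kb from the same 2 intervals. Ccl2, Ccl7, Cxcl1 and Cxcl2 were thus far from intervals of both libraries.

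**Figure D2:**
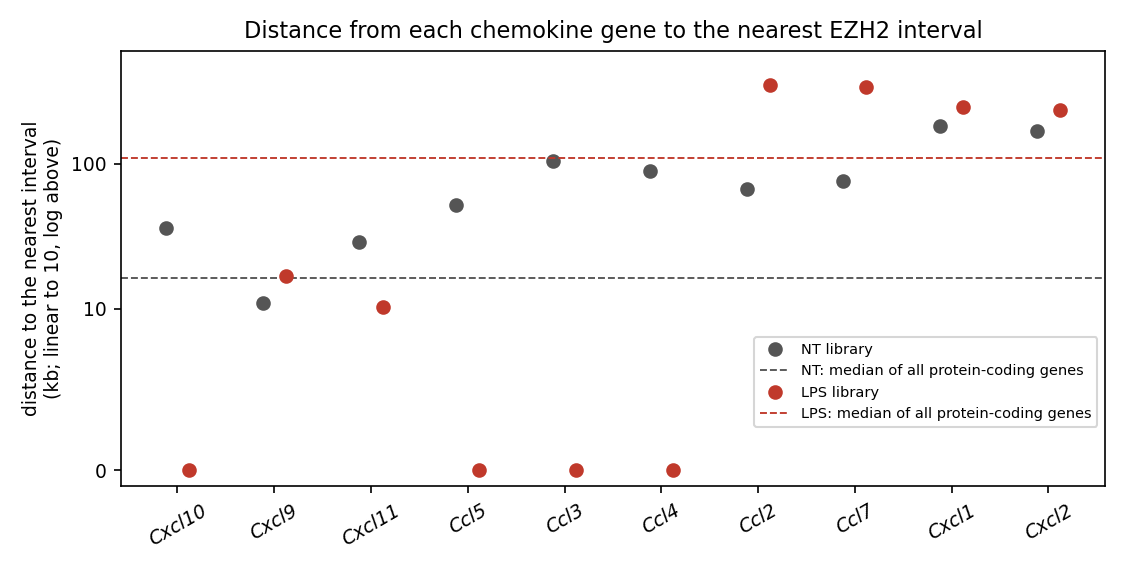
Distance in kb from each of the 10 chemokine genes to the nearest NT (grey) and LPS (red) interval, with dashed lines at the median over 21887 protein-coding genes (16.4 kb for NT, 110 kb for LPS). Cxcl10, Ccl5, Ccl3 and Ccl4 are at 0 kb in LPS, and Cxcl9 is the gene below the NT line.

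Distance described how far the genes lay from NT intervals at large. The median over the 10 genes was 71.6 kb to the nearest NT interval, against 16.4 kb over all protein-coding genes, and 9 of the 10, all but Cxcl9, lay farther than that. To the nearest LPS interval the median was 13.6 kb, against 110 kb over all protein-coding genes, and Ccl2, Ccl7, Cxcl1 and Cxcl2 lay farther than that. The LPS intervals at Ccl4, Cxcl10 and Ccl5, and their lack of an NT partner, were known when the genes were chosen. Cxcl9 and Cxcl11 were nearest to the LPS intervals at Cxcl10. The NT and LPS medians therefore follow in part from the choice of genes and support nothing by themselves. Neighbours share these distances, so the 10 values stand for 4 places in the genome.

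The LPS intervals at these genes were next placed among LPS intervals of like summit value. Those at Ccl4, Cxcl10 and Ccl5 were known to lack an NT partner when the genes were chosen. The shares below therefore describe the list and test nothing about these genes. Of 89 LPS intervals with a value of 24, 88 met an NT interval (98.9%, 95% Wilson interval 93.9 to 99.8%), and the exception was the one at Ccl4. The NT values of the partners ran from 25 to 138 with a median of 49. Of 117 intervals with a value of 23, 116 met an NT interval (99.1%, 95.3 to 99.8%), with NT values of 22 to 122, and the exception was at Cxcl10. At 19 and 18, the values of the second Cxcl10 interval and of Ccl5, 141 of 145 (97.2%, 93.1 to 98.9%) and 170 of 173 (98.3%, 95 to 99.4%) had a partner.

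At a value of 11, which 3 of the intervals at Ccl3 and Ccl4 had, 326 of 387 LPS intervals met an NT interval (84.2%, 80.3 to 87.5%). Their partners had NT values of 12 to 129 (median 26). The Wilson limits reflect counting error alone and take neighbouring intervals as independent. They apply to the share over the list and are no test of the intervals at the chemokine genes.

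In all, 276 LPS intervals met no NT interval, and their median summit value was 11. The interval at Ccl4 was the highest of them and that at Cxcl10 the next. Of the 12 such intervals with a value of 18 or higher, 4 lay at Ccl4, Cxcl10 and Ccl5 (33.3%), a limit set at the value of Ccl5 after it was seen. All 7 intervals at the chemokine genes were among the 276. Those at Ccl4, Cxcl10 and Ccl5 and their values were in view when the genes were chosen. This rank and share therefore support nothing by themselves. Within the whole LPS list the values of 18 or higher at these genes were not high. The value of 24 was above 73.0% of all LPS intervals, 23 above 70.5%, 19 above 58.7% and 18 above 55%.

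**Figure D3:**
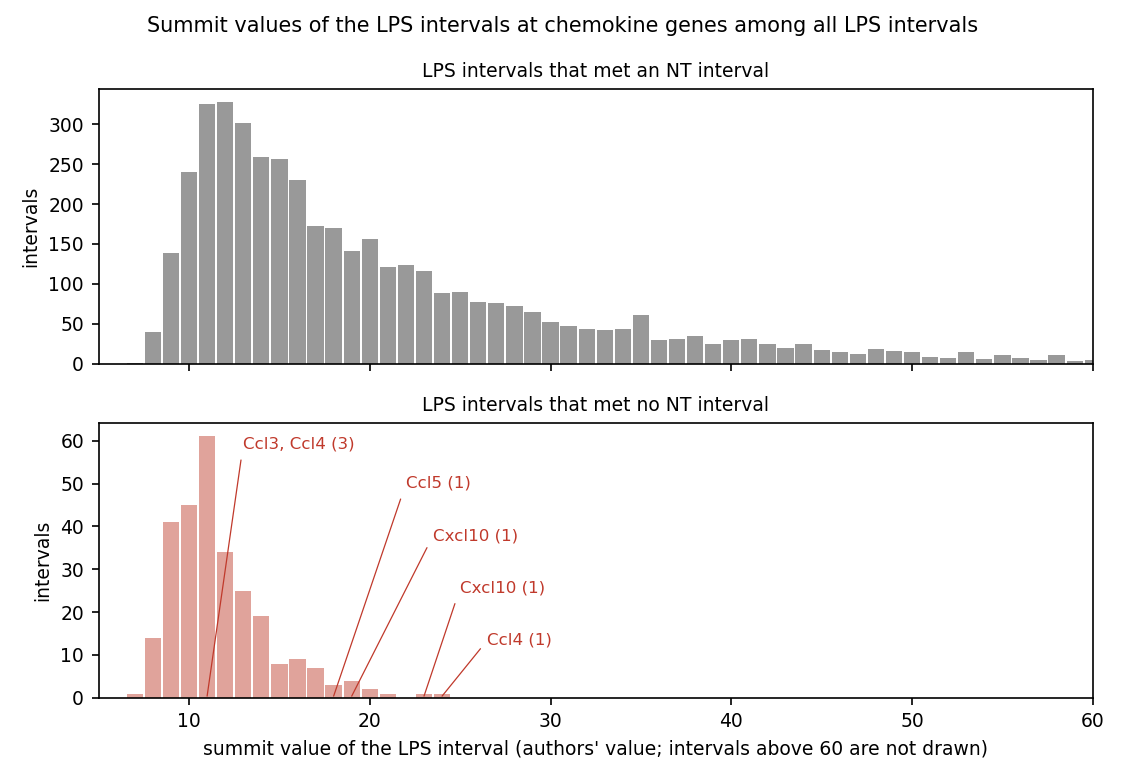
Number of LPS intervals (vertical axes, of different range) by summit value (horizontal axis, the authors' value), for intervals that met an NT interval (top) and for the 276 that met none (bottom). Red labels mark the 7 intervals at the chemokine genes, with their number in brackets; those at Ccl4 and Cxcl10 form the upper end of the lower panel, at 24 and 23.

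The remaining chemokine genes were taken as a list of 26 over the rest of the family. An NT interval was listed at 4 of the 26 (15.4%, background 46.0%) and an LPS interval at 3 (11.5%, background 21.2%). An LPS interval alone was listed at 0, which is near the background of 0.635%. Cxcl12, the homeostatic ligand of Cxcr4, had summit values of 63 in NT and 27 in LPS. Cxcl14, an epithelial chemokine, had 31 and 13, and Cx3cl1, the membrane-bound ligand of Cx3cr1, had 17 and 15. Ccl25, a thymus and gut chemokine, had 33 in NT and no LPS interval. The 4 genes with intervals in this list were each listed in NT, and whether they differ in this from the induced chemokine genes was not tested. With the NT list shortened to the length of the LPS list, Cx3cl1 was left with an LPS interval alone.

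Of 23 chemokine receptor genes, NT intervals were listed at 3 (13%) and an LPS interval at 1 (4.35%, background 21.2%). An LPS interval alone was listed at 0, which is near the background of 0.635%. Ccr10, the receptor of skin-homing lymphocytes, had values of 36 in NT and 20 in LPS. Cxcr4 had 22 in NT and Xcr1, a receptor of cross-presenting dendritic cells, 19 in NT, and neither had an LPS interval. Cxcr3, Ccr2, Ccr1 and Cxcr2, receptors of the induced chemokines, had no interval of either library. The shares with an NT interval in both lists lay below the background of 46.0%, and no test was made of that.

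CpG content of the promoters was a property that had no part in choosing the genes. Over 21263 promoters of 300 bases (250 before and 50 after the start), the median was 13 CpG dinucleotides. Promoters met by an NT interval had a median of 24, those met by an LPS interval 24, those met by an LPS interval alone (105 promoters) 16, and those met by neither 6. The chemokine promoters had 11 (Cxcl2), 10 (Cxcl10), 10 (Cxcl1), 4 (Cxcl9) and 3 (Ccl3). All 5 thus lay below the median of all promoters, and Cxcl10 and Cxcl1 had equal counts although an LPS interval covered the first and not the second.

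**Figure D4:**
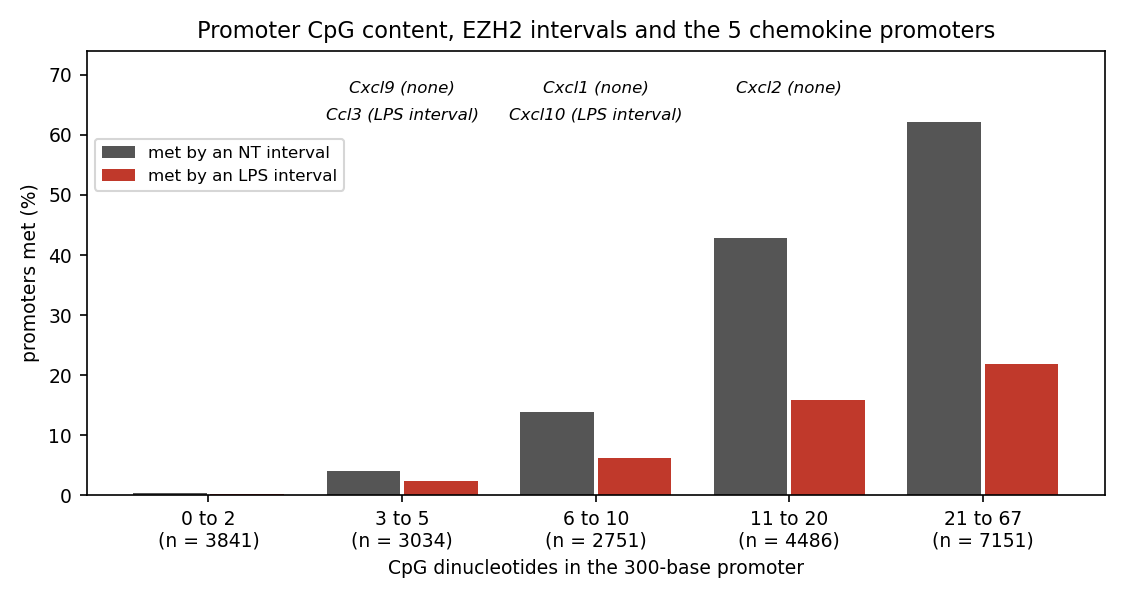
Share of promoters (%) met by an NT (grey) or LPS (red) interval, by the number of CpG dinucleotides in the 300-base promoter, with the number of promoters under each class. Gene names stand over the class of the 5 chemokine promoters; Ccl3 falls in the class of 3 to 5 and Cxcl10 in that of 6 to 10.

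The share of promoters met went with CpG content. Among the 3034 promoters with 3 to 5 CpG, the class of Ccl3, 3.99% were met by an NT interval, 2.41% by an LPS interval and 0.396% by an LPS interval alone. Among the 2751 with 6 to 10, the class of Cxcl10, the shares were 13.8%, 6.14% and 0.618%. Among the 4486 with 11 to 20, the class of Cxcl2, they were 42.8%, 15.8% and 0.691%. With 21 or more they were 62.1%, 21.9% and 0.545%. The shares in NT and in LPS were larger in each class of higher CpG content, while the share in LPS alone ran from 0.156% with 0 to 2 CpG to 0.691% with 11 to 20. GC content was 60.7% in the Cxcl2 promoter, 58.7% in Cxcl1, 50.3% in Cxcl10, 48.0% in Ccl3 and 44.3% in Cxcl9. The median was 56.3% over all promoters, 64.3% in those met by an NT interval, 65.3% in those met by an LPS interval, 59.7% in those met by an LPS interval alone and 52.0% in those met by neither. The promoters of Cxcl10 and Ccl3, which an LPS interval covered, thus lay below the median of all promoters. Those that no interval met lay on both sides of it, Cxcl1 and Cxcl2 above and Cxcl9, the lowest of the 5, below.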

How the data were processed

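EZH2 ChIP-seq of NT and LPS macrophages was used as the authors' deposited track file, with 1 interval and 1 summit track per library, per the file headers. BWA, SICER and mm10 are named, without versions or roles, per the submitters' processing notes. The summit value is a score deposited by the authors; its unit, the read depth, the use of the input and any scaling are not given in the sources used here. BED starts were made 1-based. Genes and promoters came from RefSeq tables of GRCm38.p6; the gene table lacks strand and exons, and strand was taken from the promoter table for 5 genes. An interval counted for a gene when it met the gene plus 10 kb on each side by 1 bp. Overlaps were computed in Python 3.11.15 with pandas 2.3.3, and Wilson intervals at 95% with SciPy 1.17.1; the overlap code was tested on simulated data. Members and lists were chosen with earlier results of these data known. The named genes were all members and, of the other lists, those with an LPS interval alone and up to 4 with the highest values; genes inside a member's neighbourhood and receptors of members were added after their values were seen. Alternatives changed the window, overlap, threshold and list length. No test between conditions was possible with 1 library each.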

Additional observations from a re-analysis of the deposited data

How the results depend on the processing

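No paired analysis was possible because NT and LPS each have a single library. Of 115 values recomputed under 11 alternatives, 101 stayed within 1.5 times of the reported count and 14 did not. For Ccl3, Ccl4, Ccl5 and Cxcl10 the count of 4 in LPS alone held with windows of 2.5 and 5 kb and with the gene body. It also held with the 50% overlap, merged intervals, summits, a lowest summit value of 11 in both lists and the shortened NT list. In these settings that outcome followed from the main counts. None of the 10 genes had an NT interval within 10 kb, so smaller windows or fewer NT intervals could not add one. All 4 gene bodies met an LPS interval, and no interval there had a value below 11. The intervals lay inside the windows, summits included, and merging only joins intervals. The unchanged count, which is among the 101, is therefore no separate support. The background ran from 0.434% to 0.649% in these settings except the shortened NT list, where it rose from 0.635% to 4.66%. At or above the median summit value it was 3, without Ccl3. With 20 kb, 1 gene, Cxcl9, had an NT interval, and the same gene was the 1 with both. The backgrounds were 52.0% in NT and 25.1% in both. Cxcl11 joined those in LPS alone (background 0.640%). Near the transcription start, known for 5 genes, 2 had an LPS interval, 2 of them in LPS alone. Fewer genes were counted there by construction, and no share over all genes was computed. Among the 26 other chemokine genes, 5 had an LPS interval and 5 both with 20 kb (backgrounds 25.7% and 25.1%). At or above the median summit value, 1 had an LPS interval, 1 both and 2 an NT interval alone (backgrounds 12.8%, 12.1% and 14.8%). With the shortened NT list 1 had an LPS interval alone (background 4.66%). Of the 23 receptors, 1 had an NT interval and 0 an NT interval alone at or above the median and with the shortened list. The backgrounds were 26.9% and 14.8% at or above the median, and 26.1% and 9.54% with the shortened list. Stricter settings use fewer intervals by construction; otherwise the cause was not tested. Unknown depth limits every comparison of summit values between the libraries.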
